A study of Homo sapiens with 4 samples.

Results

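NODAL, LEFTY1, LEFTY2, TDGF1, GDF3, FOXH1, FURIN and PCSK6 are the 8 genes described here, taken by symbol from a table of 17472 listed genes, and all 8 were found. They encode the NODAL ligand, its LEFTY inhibitors, its co-receptor, a related ligand, a nuclear partner of its SMAD effectors and proteases that process the ligand. RNA was measured in H1 cells, a widely used human embryonic stem cell line. The samples are 2 libraries of H1 cells with MEK5DD overexpression and 2 libraries of unmodified (WT) H1 cells, and both groups grew in E8 medium, which itself contains TGF-beta and FGF2. MEK5DD is MAP2K5 (MEK5, the kinase that phosphorylates ERK5) with a pair of residues, given in the labels as serines, changed to aspartate. It was brought in by lentivirus, and the line was selected with puromycin. The labels describe 1 MEK5DD line and give no WT cells that received lentivirus and puromycin, so MEK5DD cannot be told apart from lentiviral delivery, selection and the single line.

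NODAL is a secreted ligand of the TGF-beta family. It binds activin receptors together with the co-receptor encoded by TDGF1 (Cripto), and the receptors phosphorylate SMAD2 and SMAD3, which act on chromatin with partners such as FOXH1. In human embryonic stem cells this branch supports pluripotency, and stronger signalling leads towards mesendoderm. LEFTY1 and LEFTY2 are induced by the pathway and block it outside the cell. NODAL is made as a precursor that proprotein convertases such as FURIN and PCSK6 (PACE4) cut.

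The sequences just upstream of NODAL, GDF3 and TDGF1 are shown because all 3 encode extracellular components of the pathway, while NODAL alone of these 3 passed the test between the groups described further on. Each is the 250 bases before a transcription start in RefSeq (GRCh38.p14), in lower case, with every CAGAC or its reverse complement GTCTG, the core letters of a SMAD element, in capitals. Windows from the RefSeq table were searched for 5 of the 8 genes, and not for LEFTY1, LEFTY2 and FOXH1. In it TDGF1 is under its present symbol CRIPTO, and the first of its 2 listed starts is shown.
NODAL, chr10:70441682-70441931, minus strand: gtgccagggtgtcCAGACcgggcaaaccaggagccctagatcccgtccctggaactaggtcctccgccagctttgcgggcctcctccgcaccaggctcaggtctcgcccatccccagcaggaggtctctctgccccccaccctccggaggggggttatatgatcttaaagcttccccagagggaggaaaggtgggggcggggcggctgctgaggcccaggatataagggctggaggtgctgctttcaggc
GDF3, chr12:7695776-7696025, minus strand: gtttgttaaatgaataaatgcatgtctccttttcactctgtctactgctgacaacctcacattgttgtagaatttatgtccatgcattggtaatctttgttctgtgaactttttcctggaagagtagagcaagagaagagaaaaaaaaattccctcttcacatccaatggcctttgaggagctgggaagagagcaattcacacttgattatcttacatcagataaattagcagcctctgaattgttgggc
TDGF1, chr3:46574285-46574534, plus strand: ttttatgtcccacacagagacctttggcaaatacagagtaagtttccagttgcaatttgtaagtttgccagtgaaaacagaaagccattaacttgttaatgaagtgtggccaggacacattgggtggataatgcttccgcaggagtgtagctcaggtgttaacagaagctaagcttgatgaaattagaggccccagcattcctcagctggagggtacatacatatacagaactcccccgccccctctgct
The NODAL window held 1 SMAD element, whose first base lies 237 bases before the start, and the windows of GDF3, TDGF1 and PCSK6 held 0. Of 35116 such windows in the table, 38.0% held at least 1 on either strand. FURIN had 2 in the window of 1 of its 4 listed starts, at 167 and 50 bases before that start. The FOXH1 motif letters AATCCACA (in 0.709% of all windows, both strands) and AATACACA (in 0.666%) were in no window of the genes searched. Their last letters, CA, are the first of CAGAC, so a match of either could overlap one of CAGAC. A letter match is a description of the sequence and not a bound site.

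The deposited values are read counts divided by 1 factor per library, called normalised read counts here. The libraries held 17539654 and 15756339 recovered reads in MEK5DD and 17628945 and 14908486 in WT. MAP2K5 had 3382 and 3558 normalised read counts in the MEK5DD libraries, against 344 and 314.5 in the WT libraries, as the labels say. Of 12 pluripotency markers all were tested, with 2 higher, 2 lower and 8 not called, and POU5F1 had 42386 and 38116 in MEK5DD and 39714 and 38568 in WT. The 2 lower were SOX2 and TERF1 and the 2 higher NANOG and UTF1. All of these calls were lost when limma ran with no mean-variance trend, and that of SOX2 also in DESeq2. Across 15721 tested genes limma called 14.2% (adjusted p under 0.05), of which those higher in MEK5DD made up 7.69% of tested genes and those lower 6.47%.

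NODAL and both LEFTY genes rose together in MEK5DD cells, by 2.32-fold to 2.94-fold, while the co-receptor, the related ligand, the nuclear partner and PCSK6 did not pass the test. FURIN rose 1.18-fold with an adjusted p just under the threshold. All 8 genes were tested, and limma called 4 of them, all higher in MEK5DD, where it called 7.69% of all tested genes higher. With edgeR the same 4 were called (7.94% of all genes called higher), and with DESeq2 3 were, without FURIN (4.89% of all genes called higher). The 8 fold changes all lay above 0, as did 49.6% of those of all tested genes. The median log2 fold change of the 8 was 0.21, against -0.0023 over all tested genes. The 8 genes were chosen with earlier results of these data known, so these counts describe the set and are not independent support. In bulk RNA, more cells with a transcript and more of it per cell cannot be told apart.

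NODAL, the ligand, had 1020 and 917 normalised read counts in the MEK5DD libraries, against 347 and 311.4 in the WT libraries. Both MEK5DD values lay above both WT values, and the gap between the groups was wider than that between the libraries of either group. The means were 969 ± 73.2 in MEK5DD and 329 ± 25.2 in WT (SD, n = 2 each), a log2 fold change of 1.55 (SE 0.10, 95% interval 1.35 to 1.76, adjusted p = 7.72e-07 from limma). By log2 fold change it ranked 83 of 15721 tested genes from the highest. NODAL lies on chromosome 10 from 70432315 to 70447951 (GENCODE 29, GRCh38, minus strand), and the RefSeq start used above lies within that span. Its exons share 698 bases (41.2% of their length) with AC022532.1 on the opposite strand. That neighbour had 19.1 and 13.0 in MEK5DD and 22.9 and 17.7 in WT, far below NODAL in every library.

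LEFTY1, an inhibitor that binds NODAL and its co-receptor, had 350 and 355 normalised read counts in MEK5DD libraries and 148 and 155 in WT libraries. LEFTY2, its paralog, had 135 and 138 in MEK5DD and 56.4 and 60.4 in WT. For both genes the replicates lay close together and the groups were well apart. LEFTY1 averaged 352 ± 3.52 in MEK5DD and 152 ± 5.10 in WT (SD, n = 2 each), and LEFTY2 averaged 136 ± 1.52 in MEK5DD and 58.4 ± 2.86 in WT. The log2 fold changes were 1.21 for LEFTY1 (SE 0.11, adjusted p = 2.51e-05 from limma) and 1.21 for LEFTY2 (SE 0.16, adjusted p = 0.000481). LEFTY2 rests on few reads, 149 and 138 in MEK5DD and 64 and 58 in WT.

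The LEFTY genes are neighbours on chromosome 1 (LEFTY1 from 225886282 to 225911382, LEFTY2 from 225936598 to 225941489, both on the minus strand). One annotated transcript of each aligned over 1480 bases at 94.1% identity. Of the 75-base stretches of the LEFTY1 transcript, 23.7% also occur in the LEFTY2 transcript. A read within such a stretch would match both, unless the read from the other end places it. How many reads this affects was not measured. Exons of LEFTY1 also share 46.6% of their length with AL117348.2 on the same strand, which was not analysed here. Added together, the LEFTY genes had 485 and 492 in MEK5DD and 204 and 216 in WT, and the sum rose, with a log2 fold change of 1.22 (SE 0.10) and an adjusted p of 1.01e-05 from limma. The LEFTY2 to LEFTY1 ratio was 0.387 and 0.388 in MEK5DD and 0.381 and 0.389 in WT, close together in all 4 libraries. LEFTY2 had only 64 and 58 reads in WT, so a moderate change in the proportion could go unseen.

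**Figure D1:**
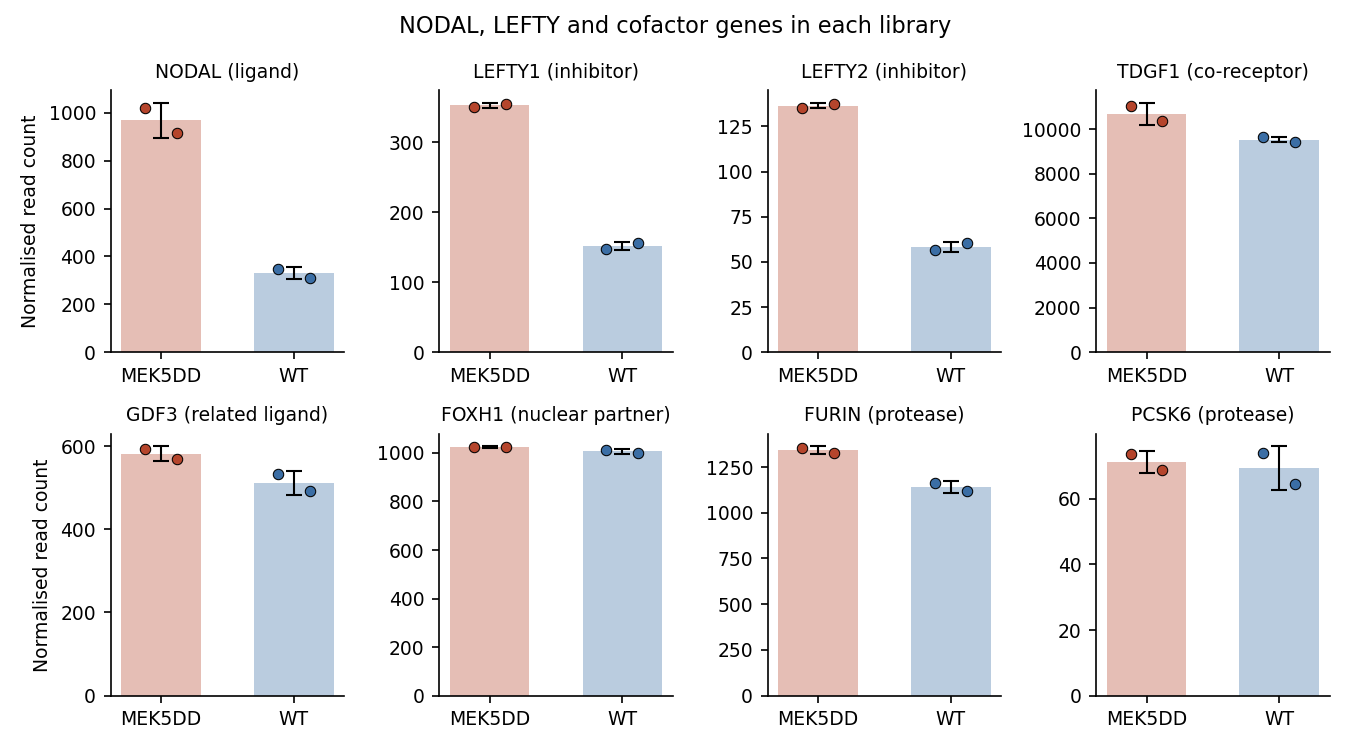
Normalised read counts (linear axes from 0, a separate scale for each gene) of the 8 genes. Points are single libraries, bars the mean and whiskers the SD of 2 libraries, with MEK5DD left of WT. NODAL (917 and 1020 in MEK5DD), LEFTY1 and LEFTY2 stand well above their WT libraries, FURIN and TDGF1 slightly, and the PCSK6 groups overlap.

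The inhibitors rose less than the ligand in these libraries. The ratio of summed LEFTY counts to NODAL counts was 0.476 and 0.537 in MEK5DD, against 0.589 and 0.692 in WT. Both MEK5DD ratios lay below both WT ratios, a log2 difference of -0.34. With 2 libraries against 2, the exact two-sided permutation test gave p = 0.333, the smallest it can give. The difference stayed below 0 without any 1 library, from -0.45 to -0.22.

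TDGF1, the co-receptor gene, was the most abundant of the 8, with 11027 and 10342 normalised read counts in MEK5DD and 9622 and 9440 in WT. The groups did not overlap. All members but PCSK6, 7 of 8, had both MEK5DD values above both WT values, as did 28.2% of all tested genes, and the groups were apart in one direction or the other for 56.2%. Its log2 fold change of 0.16 (SE 0.06, 95% interval 0.04 to 0.29) had an adjusted p of 0.0886 from limma and did not pass. The log2 fold change was 0.12 with MEK5DD replicate 1 left out and 0.21 with MEK5DD replicate 2 left out. It was 0.18 without WT replicate 1 and 0.15 without WT replicate 2. Whether it passed in those fits followed which group lost a library, as did the number of all genes called, so those calls are not read here. In DESeq2 the adjusted p was 0.199. TDGF1 lies on chromosome 3 from 46574534 to 46582463, and its longest transcript aligned at 98.4% identity to TDGF1P3, a processed copy on the X chromosome also named CRIPTO3. TDGF1P3 had 107 and 99.7 in MEK5DD and 99.5 and 89.6 in WT (log2 fold change 0.13, adjusted p = 0.658), and 25.4% of the 75-base stretches of TDGF1 occur in it.

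GDF3, a TGF-beta family ligand related to NODAL that is expressed in pluripotent cells, had 594 and 570 normalised read counts in MEK5DD and 532 and 492 in WT. The MEK5DD values were the higher pair, but the lower of them stood closer to the nearest WT value than the WT libraries stood to each other. Its log2 fold change was 0.19 (SE 0.09, 95% interval -0.01 to 0.38, adjusted p = 0.199 from limma), so a change of up to 1.30-fold lies within the interval.

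FOXH1, the forkhead factor that binds DNA with SMAD2 and SMAD3, had 1026 and 1023 normalised read counts in MEK5DD and 1014 and 998 in WT. These 4 values lay close together. The log2 fold change was 0.03 (SE 0.07, adjusted p = 0.857 from limma), with a 95% interval from -0.13 to 0.19, so changes beyond 1.14-fold in either direction lie outside it. FOXH1 shares 31.6% of its exon length with KIFC2 on the opposite strand, which had 117 and 138 in MEK5DD and 111 and 114 in WT.

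FURIN, the widely expressed convertase of the secretory pathway, had 1357 and 1329 normalised read counts in MEK5DD and 1164 and 1120 in WT. Both MEK5DD values were the higher ones. The log2 fold change was 0.23 (SE 0.07, 95% interval 0.08 to 0.39, adjusted p = 0.0484 from limma), and the call was not kept under every alternative. In fits that left out 1 library the call followed which group lost it, so those calls are not read here. The log2 fold change in those fits was 0.21 to 0.26. The adjusted p of FURIN was 0.198 when limma ran with no mean-variance trend and 0.147 in DESeq2. Upper-quartile factors gave 0.0627 and quantile normalisation 0.0867.

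PCSK6, the convertase known as PACE4, had the lowest level per kb of the 8 in every library, with 73.6 and 68.8 normalised read counts in MEK5DD and 74.0 and 64.6 in WT. The groups overlapped. The log2 fold change was 0.04 (SE 0.19, adjusted p = 0.914 from limma) with a 95% interval from -0.37 to 0.45, and it rests on 81 and 69 reads in MEK5DD and 84 and 62 in WT. The FURIN to PCSK6 ratio was 18.4 and 19.3 in MEK5DD and 15.7 and 17.3 in WT (log2 difference 0.19, exact two-sided permutation p = 0.333, the smallest that 2 against 2 allows).

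**Figure D2:**
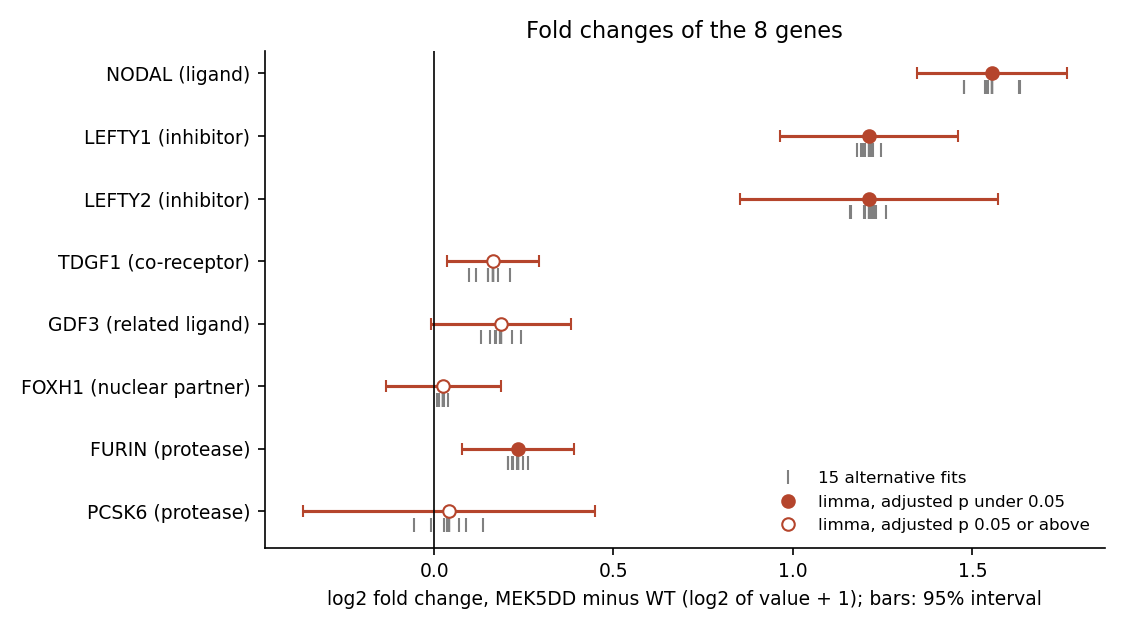
Log2 fold change of each gene, MEK5DD minus WT, on the log2(value + 1) scale, with its 95% interval. Filled points had an adjusted p under 0.05 from limma and grey ticks are the 15 alternative fits. NODAL (1.55), LEFTY1 (1.21) and LEFTY2 (1.21) lie well to the right of the other genes, and the ticks of PCSK6 fall on both sides of 0.

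Per kb of exon the genes of the set spanned a wide range, and NODAL changed its place in the order. Levels per kb are normalised read counts divided by the length of all annotated exons merged, so they depend on the annotation as well. In both MEK5DD libraries the order from the highest was TDGF1, NODAL, GDF3, FOXH1, FURIN, LEFTY1, LEFTY2 and PCSK6. In both WT libraries NODAL stood below FURIN instead, in the fifth place.

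The mean level per kb of TDGF1 was 3554 in MEK5DD and 3171 in WT, rank 106 in MEK5DD and 116 in WT among 13700 protein-coding genes. That of NODAL was 572 in MEK5DD and 194 in WT, rank 1012 in MEK5DD and 3311 in WT. GDF3 and FOXH1 were the 1 pair of neighbours whose levels per kb overlapped between libraries, in WT (GDF3 429 and 397, FOXH1 405 and 399), and in MEK5DD they did not (GDF3 480 and 460, FOXH1 410 and 409). LEFTY1 had 186 in MEK5DD and 80.2 in WT, LEFTY2 57.1 in MEK5DD and 24.4 in WT, and PCSK6 5.38 in MEK5DD and 5.23 in WT.

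**Figure D3:**
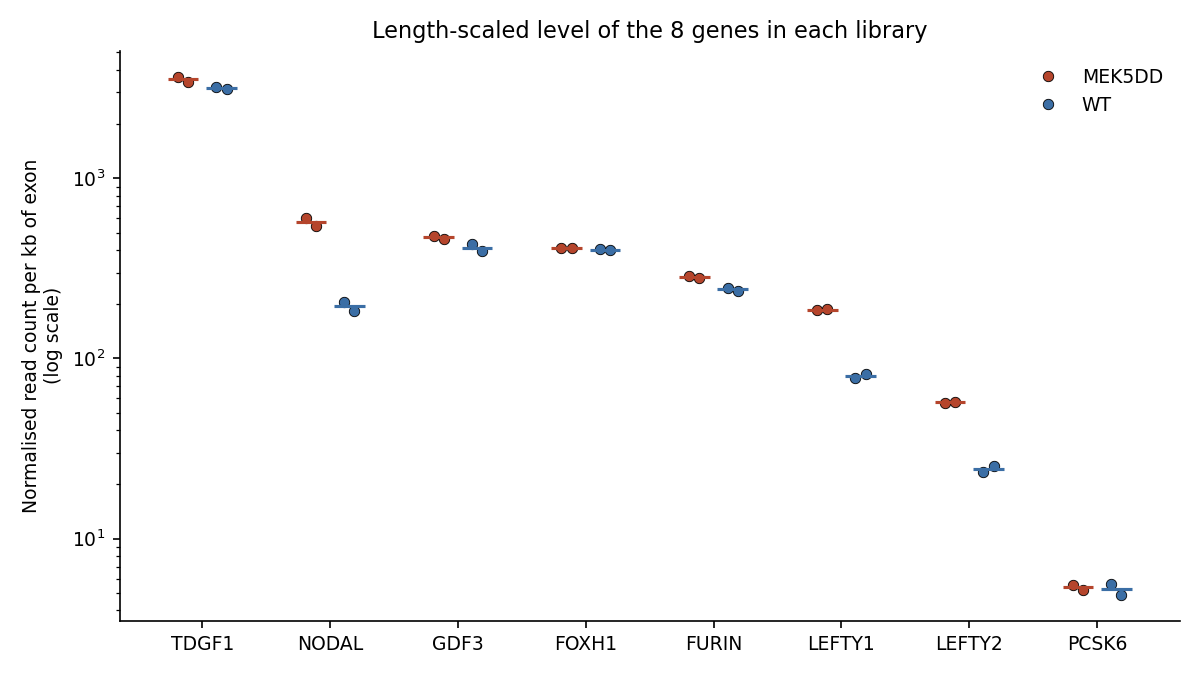
Normalised read counts per kb of merged exon (log axis) for the 8 genes, ordered by their MEK5DD mean. Points are single libraries and short lines the mean of 2 libraries, MEK5DD left of WT. NODAL lies above GDF3 in MEK5DD (572 against 470 per kb) and below FURIN in WT (194 against 242 per kb).

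The genes whose pattern over the 4 libraries was most like that of NODAL were ANXA2, VIM, GDF15, AP001065.1 and HAPLN1. Likeness was the Euclidean distance between log2(value + 1) profiles after each gene's own mean was removed, among the 10779 tested genes whose mean was 100 or more. The distances were 0.11 for ANXA2, VIM and GDF15, 0.13 for AP001065.1 and 0.15 for HAPLN1, against 0.40 for LEFTY1 and 0.41 for LEFTY2. ANXA2, a membrane-binding annexin gene, had 6706 and 6078 in MEK5DD and 2420 and 2244 in WT. With 4 libraries in 2 groups, the distance mainly measures the size of the difference between the groups.

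Beyond the 8 genes, 49 further genes of the pathway and its proteases were looked up in 5 lists, of which 36 were tested, 5 fell below the filter on low values and 8 were not analysed here. With limma 5 of the 36 were higher in MEK5DD and 4 were lower, and 27 were not called, against 7.69% higher and 6.47% lower among all tested genes. The called genes include GATA4 and LHX1, whose directions the filter favours, as described below, so these counts cannot be read apart from the filter. Of 16 genes of SMADs, their partners and their corepressors, PMEPA1 alone was called, and the median log2 fold change of the list was 0.05. PMEPA1, a target and inhibitor of TGF-beta family signalling, had 829 and 800 in MEK5DD and 638 and 544 in WT (0.47 on the log2 scale, adjusted p = 0.00570 from limma). Its adjusted p was 0.121 when limma ran with no trend, and its log2 fold change was 0.35 to 0.58 over the 15 alternatives. SMAD7, the inhibitory SMAD, had 883 and 813 in MEK5DD and 732 and 700 in WT (adjusted p = 0.0710), and it was chosen after its values were seen.

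Among 6 tested receptor and co-receptor genes, 2 were higher and 1 lower (median log2 fold change -0.01). Of all tested genes, 7.69% were higher and 6.47% lower. BAMBI, a decoy receptor without a kinase domain, had 520 and 510 in MEK5DD and 328 and 318 in WT (0.67, adjusted p = 0.000559 from limma). It stayed called in every alternative that kept all 4 libraries. ACVR1C, the NODAL receptor ALK7, had 40.9 and 64.8 in MEK5DD and 25.5 and 21.9 in WT (1.09, adjusted p = 0.0240), with wide spacing of the MEK5DD pair. Without MEK5DD replicate 2 the log2 fold change was 0.77, and without MEK5DD replicate 1 it was 1.42. The adjusted p of ACVR1C was 0.116 with no trend and 0.0843 in DESeq2. ACVR1B, the receptor ALK4, had 715 and 655 in MEK5DD and 844 and 850 in WT and fell by 0.31 on the log2 scale (adjusted p = 0.0273). Its adjusted p was 0.156 with no trend and 0.0807 in DESeq2, and its log2 fold change was -0.37 to -0.24 over the 15 alternatives.

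Of 4 tested genes of ligands and secreted antagonists, FST alone was called (list median 0.03), where 14.2% of all tested genes were called. FST, which encodes the activin trap follistatin, had 74.5 and 71.8 in MEK5DD and 123 and 116 in WT and fell by 0.70 on the log2 scale (adjusted p = 0.0130 from limma). Its adjusted p was 0.0770 in DESeq2, and its log2 fold change was -0.75 to -0.65 over the 15 alternatives. The activin subunit gene INHBA was below the filter, with 6.36 and 5.98 in MEK5DD and 9.69 and 13.5 in WT.

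Among 5 tested transcription factor genes that NODAL or activin induces in mesendoderm, 2 were higher and 1 lower (median 0.98), where 7.69% of all tested genes were higher and 6.47% lower. GATA4 and EOMES reached the filter of 10 in 2 libraries through the MEK5DD libraries, and LHX1 through the WT libraries with 1 MEK5DD library besides, so the filter favours their directions and the list's counts and median cannot be read apart from it. MIXL1 had 165 and 201 in MEK5DD and 89.8 and 94.8 in WT (0.98, adjusted p = 0.00120 from limma; adjusted p = 0.0513 without the trend). Its groups were well apart. GATA4 had 17.3 and 14.0 in MEK5DD and 3.52 and 5.21 in WT (1.64, adjusted p = 0.0456), and LHX1 had 11.8 and 3.99 in MEK5DD and 29.1 and 19.8 in WT and fell by 1.65 on the log2 scale (adjusted p = 0.0441). Both calls rest on low values. Over the alternatives that tested them, the log2 fold change was 1.14 to 1.87 for GATA4 and -2.33 to -0.96 for LHX1. After quantile normalisation the adjusted p was 0.0536 for GATA4 and 0.0552 for LHX1. With no trend it was 0.0497 for GATA4 and 0.183 for LHX1. DESeq2 gave neither gene an adjusted p. The streak factor EOMES, chosen after its values were seen, had 19.1 and 21.9 in MEK5DD and 9.69 and 7.29 in WT (adjusted p = 0.0693), and TBXT was below the filter. GSC, the remaining tested gene of the list, had 34.5 and 40.9 in MEK5DD and 42.3 and 32.3 in WT, with overlapping groups. Its log2 fold change was 0.02 (adjusted p = 0.966 from limma).

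Of 5 further proprotein convertase genes examined and tested, 1 was called, and it was lower (median -0.00718). Of all tested genes, 14.2% were called and 6.47% were lower. PCSK1, a convertase of neuroendocrine cells, had 122 and 117 in MEK5DD and 164 and 197 in WT and fell by 0.59 on the log2 scale (adjusted p = 0.0178). Its adjusted p was 0.0981 with no trend and 0.0742 in DESeq2, and its log2 fold change was -0.72 to -0.46 over the 15 alternatives. PCSK5, which can also cut TGF-beta family precursors, had 678 and 654 in MEK5DD and 684 and 654 in WT, with overlapping groups.

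**Figure D4:**
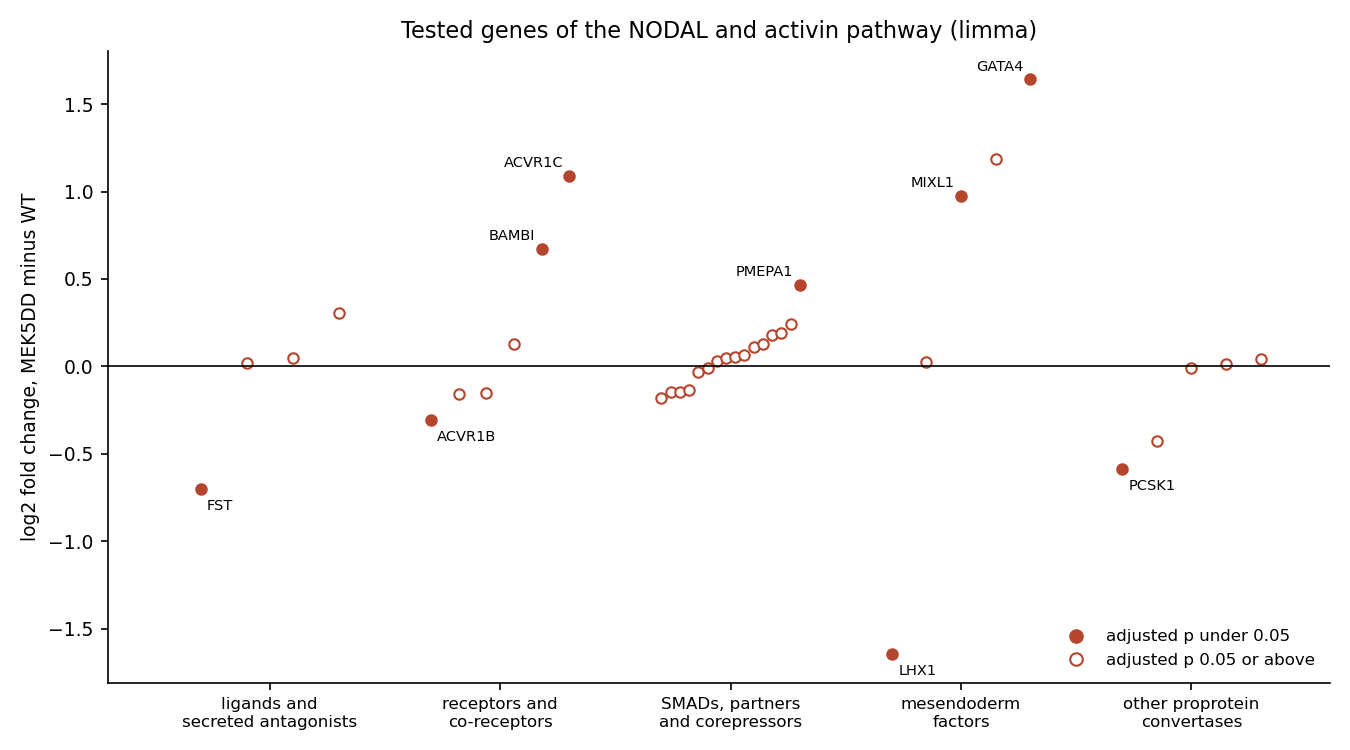
Log2 fold change, MEK5DD minus WT, of the 36 tested genes of the 5 pathway lists, sorted within each list. Filled, named points had an adjusted p under 0.05 from limma. Of the 16 SMADs, partners and corepressors only PMEPA1 (0.47) is filled. GATA4 (1.64) and LHX1 (-1.65) lie farthest from 0, both on low values whose directions the filter favours.

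Markers of other cell types that such cultures can hold also differed between the groups, in both directions, against 7.69% higher and 6.47% lower among all tested genes. Several of the calls are of genes that passed the filter in full only in the group where they are high (GATA4 and GATA3 in MEK5DD, FOXA1, SOX1 and MAP2 in WT). Of 9 primitive streak and mesoderm markers 5 were tested and 2 were higher (KDR and MIXL1), and the summed level of the listed ones was 5630 to 5887 in MEK5DD and 2834 to 2939 in WT, most of it KDR. Of 8 definitive endoderm markers 4 were tested, with 1 higher and 2 lower, and the summed level was 115 to 126 in MEK5DD and 202 to 215 in WT. Of 11 neuroectoderm markers 7 were tested, with 1 higher and 5 lower, and the sum was 8401 to 8903 in MEK5DD and 8533 to 8749 in WT. Most of that sum is NES, which was higher (8240 and 7717 in MEK5DD, 6178 and 6346 in WT). The other called neuroectoderm markers were lower, among them SIX6 with 199 and 186 in MEK5DD and 1272 and 1282 in WT (adjusted p = 2.06e-09 from limma), and SOX3 with 216 and 211 in MEK5DD and 519 and 551 in WT (adjusted p = 4.54e-06 from limma). SOX1 had 8.18 and 11.96 in MEK5DD and 49.3 and 65.6 in WT, and MAP2 had 9.09 and 14.95 in MEK5DD and 53.7 and 55.2 in WT. SIX6, which overlaps C14orf39 on the opposite strand, and SOX3 stayed called in every alternative that kept all 4 libraries. SOX1 and MAP2 did so wherever they were tested, while the filter on a mean of at least 50 removed both. Of 9 amnion and trophoblast markers 4 were tested, with 1 higher and 3 lower, at 270 to 285 in MEK5DD and 448 to 485 in WT. Of 8 fibroblast markers 4 were tested and 3 were higher, at 8822 to 9170 in MEK5DD and 7335 to 7417 in WT. Most of that sum is THY1, which was not called (6214 and 6072 in MEK5DD, 5775 and 5704 in WT), while TAGLN had 811 and 783 in MEK5DD and 391 and 394 in WT, with COL1A2 and COL1A1 (log2 fold changes 0.75 and 0.64) the other called genes. The streak factor TBXT had 3.63 and 5.98 in MEK5DD and 4.40 and 4.17 in WT, low in both groups, and SOX17, FOXA2, GATA6, CER1, MESP1, MESP2, HAND1, COL3A1, DCN, LUM and POSTN were not analysed here. Whether cells of these types were present was not tested, nor was any part of theirs in the NODAL and LEFTY results.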

How the data were processed

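Per the labels' protocols, 4 libraries of poly(A) RNA from H1 cells were read from both ends on a NextSeq instrument. The tools listed in the submitters' processing notes are featureCounts 1.5.3, STAR, Trimmomatic 0.36 and DESeq2 1.26.0, with the build hg38 and no roles. In the sources used here neither the annotation nor the strand setting of the counting is given. The deposited table holds a signal, gene read counts that the authors normalised. Dividing a library by its smallest value gave whole numbers throughout (largest departure 0.000121), which were taken as reads. Every listed gene has reads in all 4 libraries.

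The main test was limma 3.58.1 (R 4.3.3) with its trend option, run on log2(value + 1) for the 15721 genes that reached 10 in 2 or more libraries, two-sided, adjusted by Benjamini and Hochberg over all genes, threshold 0.05. Folds are on that scale and understate changes of low genes. Nothing in the labels tells if replicates were separate cultures, so p-values reflect only how these libraries spread, which may be technical. The alternatives changed the pseudocount, the filter, the scaling or the trend, added a replicate block, left out single libraries, or used edgeR 4.0.16 and DESeq2 1.42.0 on recovered reads. The procedure was also run on simulated counts whose spread was estimated from these same 4 libraries. Such counts cannot show whether that spread is technical, and no result here relies on them.

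Genes were matched to GENCODE 29 (GRCh38), in which 97.8% of symbols were found. Promoter sequences are from RefSeq (GRCh38.p14). The 8 genes and the lists were chosen with earlier results of these data known. Some genes of these lists are not reported here and were left out of their counts and medians. The rule for named genes took the 8 genes, MAP2K5, POU5F1, at most 4 called genes per list with the largest change, listed genes that overlap a member, and the 5 genes nearest to NODAL. INHBA, PCSK5, SMAD7, EOMES, GSC, TBXT, NES, THY1 and TDGF1P3 fall outside it, picked once their values were known.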

Additional observations from a re-analysis of the deposited data

How the results depend on the processing

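NODAL, LEFTY1, LEFTY2 and the LEFTY sum kept their direction under all 15 alternatives, and their call in every alternative that kept all 4 libraries. Over all 15 the log2 fold changes were 1.48 to 1.63 for NODAL, 1.18 to 1.25 for LEFTY1 and 1.159 to 1.261 for LEFTY2. The highest adjusted p, from limma without the mean-variance trend, was 0.0277 for NODAL and 0.0273 for each LEFTY gene. The FURIN rise kept its direction and lost its call with upper-quartile factors (0.22), quantile normalisation (0.21), no trend (0.23) and DESeq2 (0.23), and spanned 0.21 to 0.26 with single libraries left out. TDGF1 passed in limma with a replicate block (0.16, adjusted p = 0.0298), and it spanned 0.12 to 0.21 with single libraries left out. GDF3 (0.13 to 0.24) and FOXH1 (0.00822 to 0.0377) stayed uncalled. PCSK6 changed sign with libraries left out (-0.0557 to 0.138; -0.00726 without MEK5DD replicate 1), never called. The LEFTY2 to LEFTY1 log2 ratio difference was near 0 and changed sign, with 0.0040 at pseudocount 0.5, -0.0319 at pseudocount 5 and -0.0152 to 0.0147 with libraries left out. The FURIN to PCSK6 difference was 0.12 to 0.26. The cause was not tested. The number of genes called, 2226, was 439 without the trend, 1358 with DESeq2, 3349 with the replicate block and, with 1 library left out, 3743 when it was MEK5DD replicate 1, 4629 for MEK5DD replicate 2, 1196 for WT replicate 1 and 1160 for WT replicate 2, where a lone library is assumed to vary like the other group. The members called numbered 3 to 5. The labels do not say whether the replicate numbers pair libraries. Deviations of same-numbered libraries had a correlation of 0.0469 over genes, which does not settle it. The block changed no other call among the 8 genes. LEFTY2 and PCSK6 rest on the fewest reads, so small changes in them are not detectable at this depth.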
